A study of Mus musculus with 8 samples.

Results

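The genes described here carry out glycolysis, the breakdown of glucose to pyruvate and lactate, or answer to the hypoxia-inducible factors (Hif), in mouse embryonic stem cells (ESCs) that lost nucleostemin (NS). They were taken from a list of 37 genes that was chosen with earlier results of these data known. Of the 37, 34 had an array probe set that names 1 gene, among 18194 genes measured in all. The 34 genes comprised 2 glucose transporters, 12 glycolytic enzymes, 2 regulators of the Pfkfb family, 5 pyruvate and lactate genes, 11 Hif targets outside glycolysis and 2 Hif alpha subunits. Bnip3l was measured only by probe sets that it shares with another gene, and Gpi1 and Eno1 were unnamed in the annotation used here. These 3 genes have no values. Where a gene had several probe sets, the one with the highest mean over all arrays stands for it.

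All cells were NS tet-off ESCs, male cells of 129sv background whose own NS gene was disrupted on both alleles. NS came from a cDNA in the ROSA26 locus that doxycycline (Dox) shuts off, so that the Dox-untreated cells expressed NS from a transgene. There were 4 backgrounds, namely cells bearing an empty vector and grown with leukemia inhibitory factor (LIF) and serum, empty vector-bearing cells in the 2i condition with inhibitors of MEK and GSK3b, Nanog-overexpressing cells and Esrrb-overexpressing cells. Each background gave 1 array of Dox-untreated cells and 1 array of cells treated with Dox for 6 days, and these 2 arrays are called a pair. The vectors for Nanog and Esrrb were stably integrated and selected with a drug, and whether the cells were clones or pools is not given in the sources used here. A pair with active Stat3 is not analysed here. No condition has a replicate array.

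Glucose enters the cell through Glut transporters, is trapped by hexokinase and is committed to glycolysis by phosphofructokinase. Lactate dehydrogenase then turns pyruvate into lactate, which leaves through monocarboxylate transporters, whereas pyruvate dehydrogenase sends pyruvate into the mitochondria. Hif1a and Epas1 are the alpha subunits of a transcription factor that pairs with Arnt. With oxygen present, prolyl hydroxylases of the Egln family mark them for destruction through Vhl, and in hypoxia they accumulate. Hif then induces most genes of glycolysis together with genes of vessel growth, pH balance and mitophagy, though not every such gene answers to both subunits. The amount of these subunits is therefore set largely at the protein level. Mouse ESCs are known for a high rate of glycolysis even when oxygen is abundant.

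Hif binds a short core, ACGTG or GCGTG, that is common to hypoxia response elements. These letters were searched on both strands in the 250 bases before each RefSeq start (GRCm38.p6), where the opposite strand reads CACGT or CACGC. The core ACGTG also lies inside the E-box CACGTG, which Myc and Usf factors bind, and CACGCGTG holds overlapping matches. For the 8 genes that rose after Dox over the 4 backgrounds, the promoter stretch around the matches is shown so that their number and spacing can be seen. The stretches are written 5′ to 3′ on the strand of the gene, with the matches in capitals.

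Slc2a1 (chr4:119108664-119108733, plus strand): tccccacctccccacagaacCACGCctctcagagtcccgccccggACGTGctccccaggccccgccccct
Pfkl (chr10:78009882-78009926, minus strand): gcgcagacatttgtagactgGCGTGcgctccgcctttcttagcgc
Pfkp (chr13:6648772-6648927, minus strand): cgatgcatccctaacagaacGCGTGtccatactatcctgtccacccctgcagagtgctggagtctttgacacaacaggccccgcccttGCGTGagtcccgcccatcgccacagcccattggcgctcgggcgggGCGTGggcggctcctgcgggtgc
Ldha (chr7:46845639-46845794, plus strand): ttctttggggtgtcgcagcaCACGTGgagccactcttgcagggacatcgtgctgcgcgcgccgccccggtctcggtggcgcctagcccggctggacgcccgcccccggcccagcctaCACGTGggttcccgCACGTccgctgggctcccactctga
Ldhb (chr6:142508059-142508103, minus strand): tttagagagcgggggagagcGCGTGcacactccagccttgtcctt
Slc16a3 (chr11:120949020-120949066, plus strand): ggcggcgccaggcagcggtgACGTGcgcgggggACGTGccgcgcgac
Bnip3 (chr7:138909517-138909643, minus strand): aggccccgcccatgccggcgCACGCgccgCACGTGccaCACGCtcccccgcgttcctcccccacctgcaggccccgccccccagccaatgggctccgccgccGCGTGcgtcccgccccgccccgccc
Ankrd37 (chr8:45999851-46000100, minus strand): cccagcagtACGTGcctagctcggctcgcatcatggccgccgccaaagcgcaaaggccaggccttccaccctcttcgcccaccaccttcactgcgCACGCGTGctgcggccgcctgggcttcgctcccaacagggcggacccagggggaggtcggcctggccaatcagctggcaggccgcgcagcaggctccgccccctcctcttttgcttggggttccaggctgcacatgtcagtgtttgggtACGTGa

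The core stood in 35 of 42 promoters of the listed genes (83.3%) and in 29 of their 31 genes with a promoter in the table (93.5%). Over all 32851 promoters the share was 38.6%, and over the 18110 promoters of genes on the array it was 48.9%. Counted by gene, it was 41.5% of all 27025 genes with a promoter and 53.6% of the 14453 on the array. The stretches of Bnip3 and Ldha hold 5 matches each and that of Ankrd37 holds 4, with the CACGTG of Bnip3 and both of Ldha counted on each strand. Those of Pfkl and Ldhb hold 1. Only Eno2 and Tpi1 had no match, and Slc2a3, Ndrg1 and Epas1 have no entry in the promoter table. By group, 14 of 19 promoters of the glycolytic enzymes and 10 of 11 of the Hif targets outside glycolysis had one. The genes were listed for their known part in glycolysis or their answer to Hif, so their higher share is not read as a result. The promoters compared were not matched for base composition or expression. These are matches of letters, and no binding was measured.

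The treatment was checked by Gnl3, which encodes NS. Its log2 signal was 13.47 to 13.68 on the 4 Dox-untreated and 7.79 to 9.13 on the 4 Dox-treated arrays. Dusp6, a gene induced by MEK and Erk signalling, had a log2 signal of 10.95 on the 2i Dox-untreated array and 10.97 on that of the empty vector, against 7.63 in the 2i condition with Dox. The 2i Dox-untreated array thus goes against its label, and for the listed genes over 2-fold in either comparison the Dox-treated 2i array is also set against the empty vector Dox-untreated array. If the 2i Dox-untreated array was not in 2i, both comparisons change 2i together with Dox, and their parts cannot be told apart. The same holds for the 2i pair among the 4 pairs that limma uses. All 10 ESC markers were above the median of gene means on all 8 arrays. Their summed signal (log2) was 16.26 to 16.34 on the Dox-untreated arrays. After Dox it was 15.90 with the empty vector, 16.28 in 2i, 16.245 with Nanog and 16.37 with Esrrb. In the empty vector pair 8 of the 10 were lower after Dox, against 9870 of all 18194 genes. Of these 8, 2 were over 2-fold lower (3.85% of all genes). In the 2i, Nanog and Esrrb pairs 6, 5 and 3 were lower, 0 of them over 2-fold. The 11 trophoblast and simple epithelium markers had a summed signal (log2) of 10.62 to 11.35 on the Dox-untreated arrays, 13.75 and 12.58 after Dox in the empty vector and 2i backgrounds, and 11.06 and 11.23 after Dox with Nanog and Esrrb. Of them, 4 to 5 were above that median on the Dox-untreated arrays, and 7 after Dox in the empty vector and 2i backgrounds. The summed signal of the 7 endoderm markers was 7.41 to 7.64 on the other Dox-untreated arrays and 10.04 on that of Esrrb. The signal of 3′ over 5′ probe sets of Actb, a sign of RNA quality, was 0.52 to 0.80 (log2), lowest on the Dox-treated 2i and empty vector arrays.

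After Dox, 8 of the 34 genes rose over the 4 backgrounds and 0 fell. A glucose transporter (Slc2a1), the phosphofructokinases Pfkl and Pfkp, both lactate dehydrogenase genes (Ldha and Ldhb), the lactate exporter gene Slc16a3 and the Hif targets Bnip3 and Ankrd37 made up the 8. The estimates ran from 0.50 to 1.63 on the log2 scale. The test was limma over all 18194 genes, in which the 4 pairs stand in as replicates, with Benjamini-Hochberg adjustment at 0.05. It called 3.69% of all genes higher and 3.39% lower. At an unadjusted p under 0.05, limma had 18 of the 34 genes higher and 1 lower, where all genes had 13.4% and 14%. In 17 of the 34 genes the signal was higher after Dox in 4 of 4 pairs, as in 18.4% of all genes. Because the list was chosen with earlier results of these data known, such shares do not test it as a set. In the RNA of whole cultures, fewer cells of a type and less RNA per cell cannot be told apart.

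**Figure D1:**
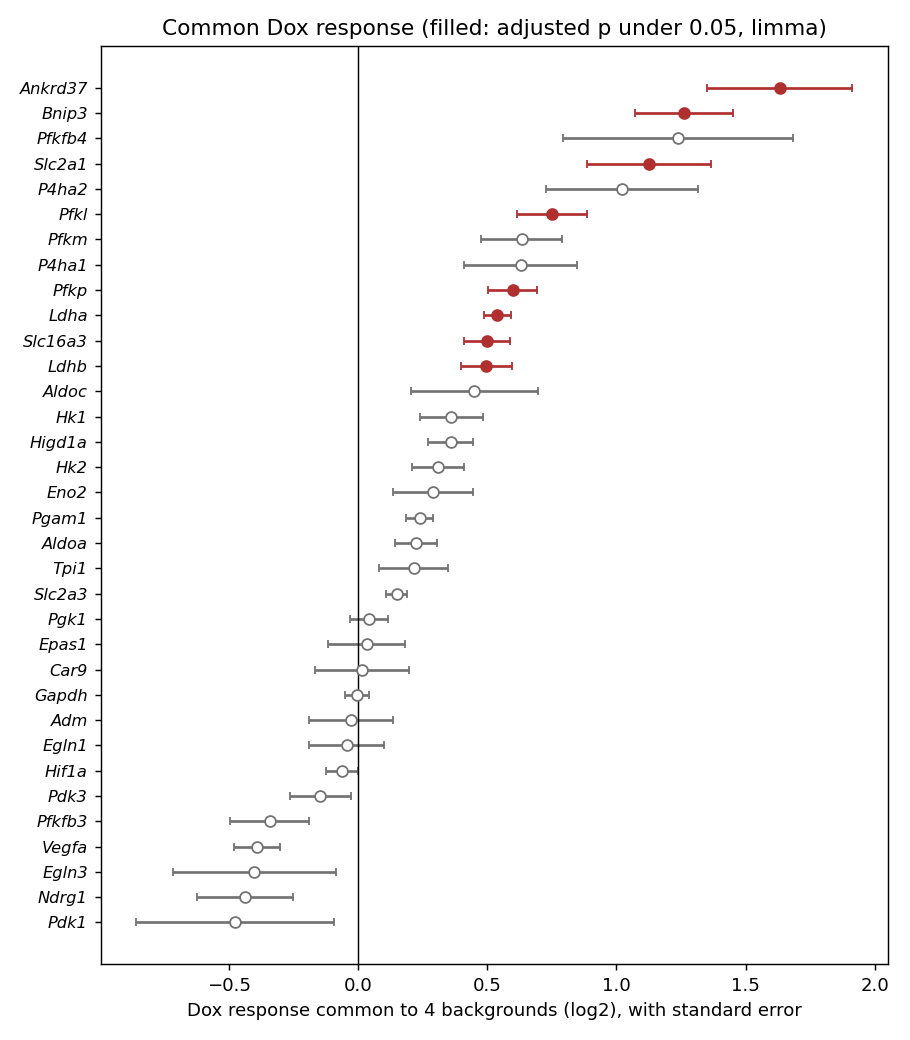
Dox response common to the 4 backgrounds for each of the 34 genes, as the log2 estimate of limma with its standard error, ordered by size. Filled points are the 8 genes with an adjusted p under 0.05, all above 0, and Hif1a and Epas1 lie near 0.

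With 1 pair left out, which leaves 6 arrays, limma called 1 to 26 of all genes higher instead of 671. It called 0 to 2 of the 34 genes, and the 2 were Bnip3 and Ankrd37 without the Nanog pair. Leaving out the empty vector, the 2i or the Esrrb pair ended all 8 calls, while their estimates stayed above 0 in each fit. The estimate of Ldha ran from 0.52 to 0.56, that of Slc16a3 from 0.46 to 0.53, that of Bnip3 from 1.11 to 1.49 and that of Slc2a1 from 0.80 to 1.30.

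In single pairs, where 1 array a condition allows no test, 10 of the 34 genes were over 2-fold apart at least once, against 13.8% of all genes. In the empty vector pair 6 genes were over 2-fold higher and 0 lower, where the shares of all genes were 5.36% and 3.85%. In the 2i pair 5 were higher and 2 lower (all genes 4.81% and 3.1%). Set against the empty vector Dox-untreated array, the Dox-treated 2i array had 9 higher and 2 lower (all genes 5.99% and 3.85%). The Nanog pair had 0 in either direction (all genes 1.13% and 1.17%). In the Esrrb pair 3 were higher and 0 lower (all genes 1.06% and 0.967%).

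**Figure D2:**
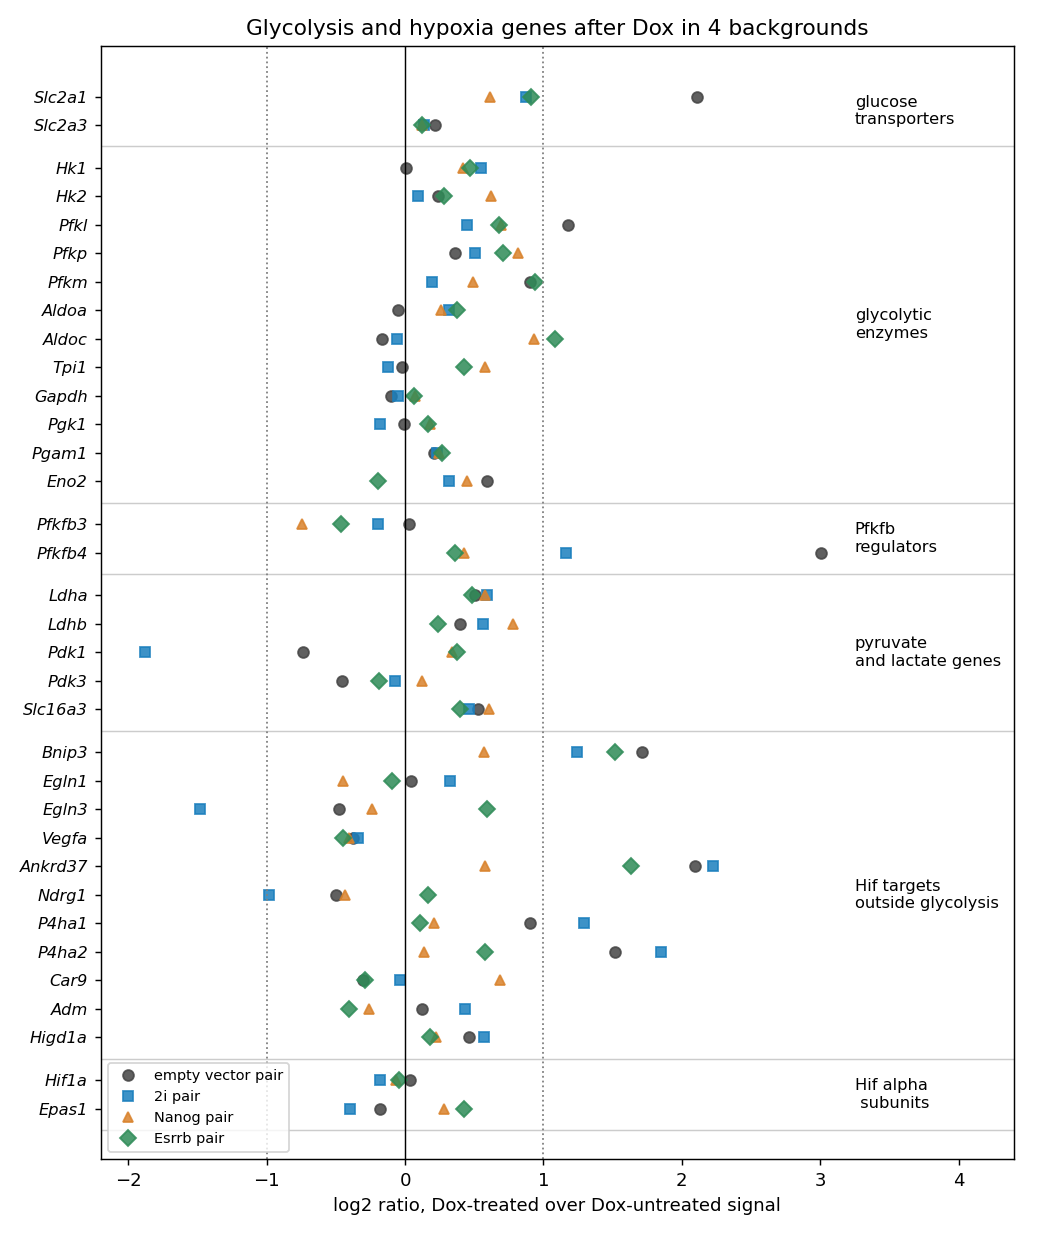
Log2 ratio between Dox-treated and Dox-untreated signal for each of the 34 genes in the 4 pairs, grouped by role. Dotted lines mark 2-fold. Pfkfb4 and Slc2a1 stand farthest out in the empty vector pair at 3.004 and 2.11, and Pdk1 lies at -1.88 in the 2i pair but at 0.34 and 0.38 in the Nanog and Esrrb pairs.

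Among the glucose transporters, Slc2a1, which encodes the widespread transporter Glut1, rose. Values here and below follow the order empty vector, 2i, Nanog and Esrrb. The log2 signal of Slc2a1 was 11.38, 11.65, 11.64 and 11.87 before and 13.49, 12.53, 12.25 and 12.78 after Dox. Every Dox-treated array was above every Dox-untreated one, and that of the empty vector was the highest. The change was 4.32-fold in the empty vector pair and 1.83-fold, 1.53-fold and 1.88-fold in the others. Against the empty vector Dox-untreated array, the log2 ratio of the Dox-treated 2i array was 1.15. Over the 4 backgrounds the estimate was 1.13 on the log2 scale (standard error 0.241, higher in 4 of 4 pairs, adjusted p = 0.0495 from limma), and the adjusted p ran from 0.0294 to 0.0694 over the other settings of the fit, with the call lost in 3 of 8. The other probe sets of Slc2a1 gave log2 ratios of 2.25 to 2.64 in the empty vector pair and 0.70 to 0.94 in the other 3. Slc2a3, the gene of the high-affinity transporter Glut3, had log2 signals of 13.69, 13.70, 13.66 and 13.75 before and 13.91, 13.84, 13.78 and 13.88 after Dox. Its Dox-treated arrays were also all above the Dox-untreated ones, but by 0.12 to 0.22 only, and it did not pass (adjusted p = 0.0798 from limma, higher in 4 of 4 pairs).

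For 12 of the 34 genes the Dox-treated and Dox-untreated arrays did not overlap. The Dox-treated arrays were the higher ones for 11 of them (8.79% of all genes), namely Slc2a1, Slc2a3, Pfkl, Pfkm, Pgam1, Pfkfb4, Ldha, Slc16a3, Bnip3, Ankrd37 and Higd1a. Vegfa alone was lower on all Dox-treated arrays (8.96% of all genes).

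Of the 12 glycolytic enzymes, Pfkl and Pfkp rose and 10 did not pass the test. Both encode phosphofructokinase, the enzyme of the committed step. Pfkl, the liver type, had log2 signals of 8.21, 8.67, 8.76 and 8.62 before and 9.39, 9.12, 9.45 and 9.30 after Dox, so that the arrays did not overlap. Its estimate was 0.75 (standard error 0.136, higher in 4 of 4 pairs, adjusted p = 0.0373 from limma). Pfkp, the platelet type, had 10.15, 10.66, 10.97 and 11.01 before and 10.51, 11.16, 11.79 and 11.72 after Dox. The 4 backgrounds differed in the signal of Pfkp before Dox, so the arrays overlapped, while each pair was higher after Dox by 0.36 to 0.82. Against the empty vector Dox-untreated array, the Dox-treated 2i array was at 0.91 for Pfkl, 1.01 for Pfkp, 1.03 for Pfkm and 1.18 for Hk1. The estimate of Pfkp over the 4 backgrounds was 0.60 (standard error 0.095, 4 of 4 pairs higher, adjusted p = 0.0300 from limma). The other probe sets of Pfkp gave log2 ratios from -0.30 to 0.72, and on the mean of its probe sets Pfkp did not pass (adjusted p = 0.174, range over the settings 0.0213 to 0.258). Pfkm, the muscle type, was higher in 4 of 4 pairs by 0.20 to 0.94 and did not pass (adjusted p = 0.0644 from limma).

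None of the listed enzymes downstream of phosphofructokinase reached 2-fold in the empty vector or 2i pair. Aldoc, an aldolase isoform known from brain, had log2 signals of 7.79, 8.31, 7.81 and 7.76 before and 7.63, 8.25, 8.74 and 8.85 after Dox. Among the 8 arrays the signal was highest after Dox with Nanog or Esrrb. Its log2 ratios were -0.17, -0.06, 0.93 and 1.09, and the difference between the Nanog and Esrrb pairs and the other pairs was 1.12 (standard error 0.170, adjusted p = 0.0654 from limma), which did not pass. A second, dimmer probe set of Aldoc gave -0.12, -0.50, -0.25 and -0.69 and so did not share this pattern. Tpi1, the gene of triosephosphate isomerase, had log2 ratios of -0.02, -0.12, 0.58 and 0.43, and its other probe sets gave 0.47 to 0.57 in the Nanog and Esrrb pairs.

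Gapdh, the dehydrogenase gene often used as a reference, had log2 signals of 13.89, 13.92, 13.85 and 13.94 before and 13.79, 13.87, 13.92 and 14.00 after Dox. The arrays overlapped and no pair moved by more than 0.10. Pgk1, the first step that yields ATP, had log2 ratios of -0.01, -0.18, 0.18 and 0.17. Pgam1, the phosphoglycerate mutase gene, was higher by 0.21 to 0.27 in 4 of 4 pairs and fell just outside the threshold (adjusted p = 0.0502 from limma). Hk1 and Hk2 encode the hexokinases. Both were higher in 4 of 4 pairs, Hk1 by 0.01 to 0.55 and Hk2 by 0.10 to 0.62, and neither passed (adjusted p = 0.122 and 0.115 from limma). Aldoa, the main aldolase, ranged from -0.05 to 0.37 and Eno2, the neuronal enolase, from -0.20 to 0.59.

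Pfkfb4 had the widest change of the 34 genes. The Pfkfb enzymes make and break fructose-2,6-bisphosphate, the activator of phosphofructokinase. The log2 signal of Pfkfb4 was 6.45, 6.77, 6.69 and 6.61 before and 9.45, 7.94, 7.11 and 6.97 after Dox. The arrays did not overlap, but with Nanog or Esrrb the Dox-treated signal lay close to the Dox-untreated one. The change was 8.02-fold in the empty vector pair, 2.24-fold in the 2i pair, 1.34-fold in the Nanog pair and 1.28-fold in the Esrrb pair. The Dox-treated 2i array was at 1.48 (log2) against the empty vector Dox-untreated array. With this spread neither test was passed. The common estimate was 1.24 (standard error 0.445, higher in 4 of 4 pairs, adjusted p = 0.141 from limma) and the difference of the Nanog and Esrrb pairs from the others was -1.69 (standard error 0.581, adjusted p = 0.252 from limma). The order of the pairs, empty vector, 2i and then the other two, was also that of the trophoblast and simple epithelium markers given above, whose part in it was not tested. Pfkfb3, whose product strongly favours glycolysis, had log2 ratios of 0.03, -0.20, -0.74 and -0.46 and did not pass (adjusted p = 0.210 from limma). Its mean signal of 6.02 was below the median of gene means. A second, dimmer probe set of Pfkfb3 gave -0.39, 0.32, -0.54 and 0.24, with the same sign in the Nanog pair only.

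Of the 5 pyruvate and lactate genes, 3 rose. Ldha, the lactate dehydrogenase subunit of glycolytic tissues, had log2 signals of 12.08, 11.96, 12.14 and 11.84 before and 12.59, 12.56, 12.71 and 12.32 after Dox. All Dox-treated arrays were above all Dox-untreated ones, and the pairs were close to each other at 1.42-fold, 1.51-fold, 1.49-fold and 1.40-fold. Its estimate was 0.54 (standard error 0.053, 4 of 4 pairs higher, adjusted p = 0.0172 from limma), the smallest adjusted p of the 34 genes. Ldhb, the subunit of oxidative tissues, had 11.09, 11.31, 10.79 and 12.78 before and 11.49, 11.87, 11.57 and 13.01 after Dox. The Esrrb arrays were the highest of each treatment, so the groups overlapped, while each pair was higher after Dox by 0.24 to 0.78. Its estimate was 0.50 (standard error 0.098, higher in 4 of 4 pairs, adjusted p = 0.0437 from limma), with a range of 0.0311 to 0.561 over the other settings and the call lost in 4 of 8. Slc16a3, which encodes the lactate exporter Mct4, had 4.38, 4.18, 4.48 and 4.20 before and 4.90, 4.64, 5.09 and 4.60 after Dox. These signals are below the median of gene means, where log2 ratios are compressed, and the arrays did not overlap. Its estimate was 0.50 (standard error 0.090, higher in 4 of 4 pairs, adjusted p = 0.0371 from limma).

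Pdk1 and Pdk3, kinases that switch off pyruvate dehydrogenase, did not pass the common test (adjusted p = 0.473 and 0.475 from limma). Pdk1, a Hif target that holds pyruvate back from the mitochondria, had log2 signals of 10.53, 10.70, 10.51 and 10.80 before and 9.79, 8.82, 10.85 and 11.17 after Dox. After Dox, the empty vector and 2i backgrounds had the lowest signals of the 8 arrays and the Nanog and Esrrb backgrounds the highest. The log2 ratios were -0.74, -1.88, 0.34 and 0.38, and the difference of the Nanog and Esrrb pairs from the others was 1.67 (standard error 0.362, adjusted p = 0.116 from limma), which did not pass. In the 2i pair, 2 other probe sets of Pdk1 gave -2.05 and -1.96, and a dim one with a mean signal of 2.94 gave 0.08. Against the empty vector Dox-untreated array, the Dox-treated 2i array was lower by a log2 ratio of -1.71. Pdk3 had log2 ratios of -0.45, -0.07, 0.12 and -0.19.

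**Figure D3:**
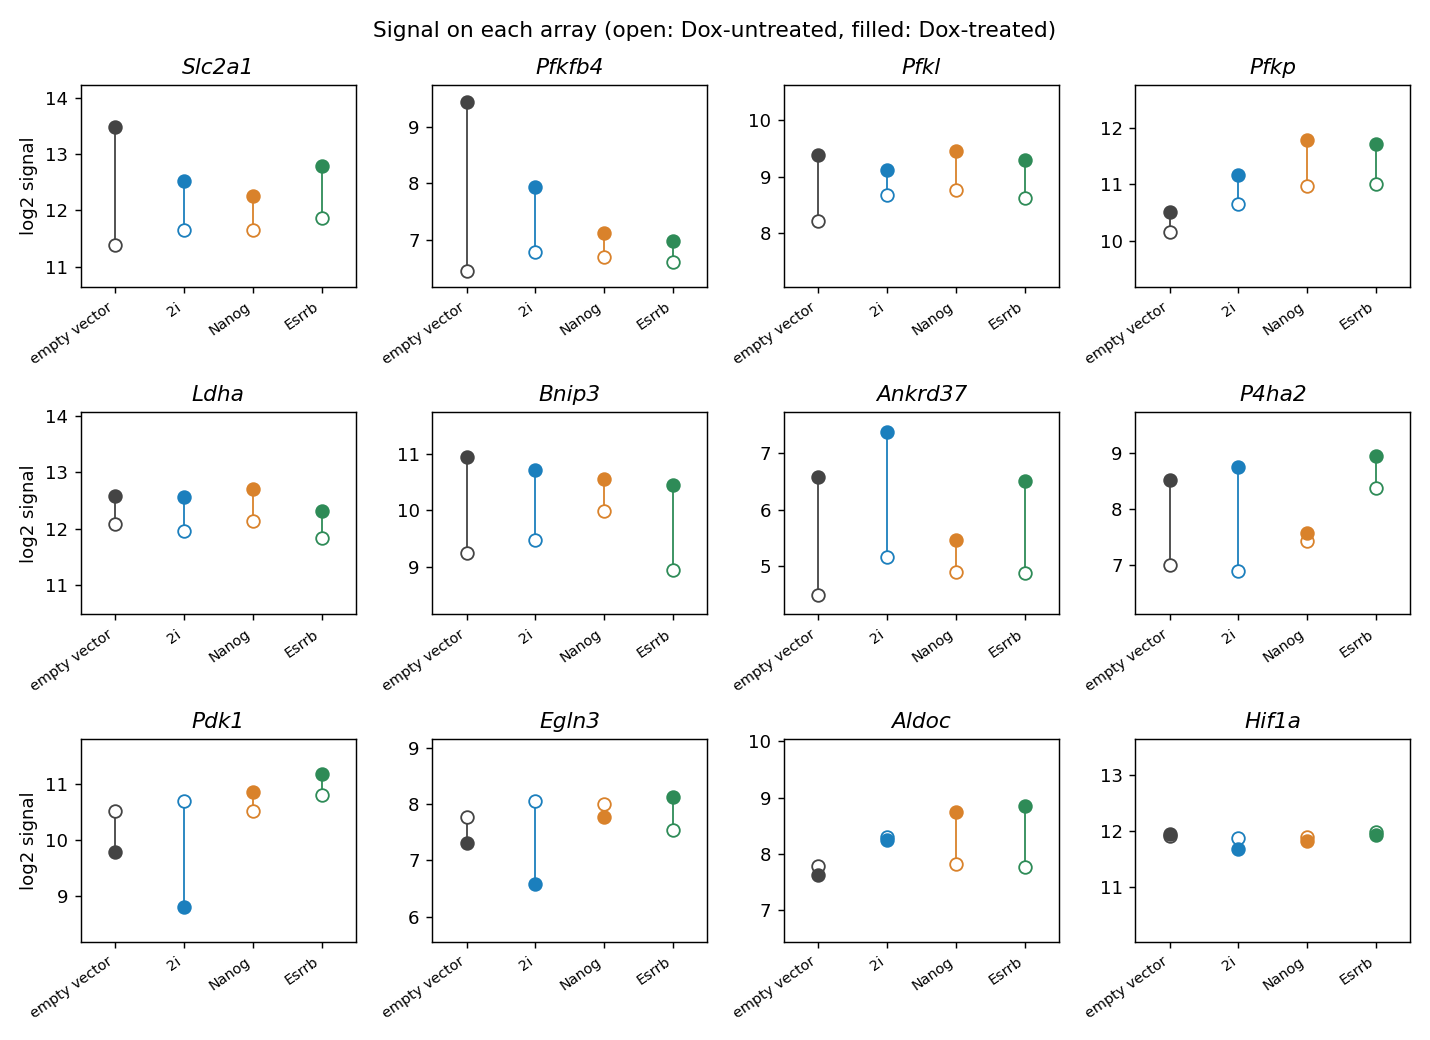
Log2 signal of 12 genes on each of the 8 arrays, with open points for Dox-untreated and filled points for Dox-treated cells, joined by background. The vertical axes differ between panels. Slc2a1, Pfkl, Ldha, Bnip3 and Ankrd37 were higher after Dox in each background, Pdk1 was lower in the empty vector and 2i backgrounds, and the points of Hif1a nearly coincide.

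Of the 11 Hif targets outside glycolysis, Bnip3 and Ankrd37 rose and the other 9 did not pass the test. Bnip3 encodes a receptor for the removal of mitochondria. Its log2 signal was 9.24, 9.47, 9.99 and 8.94 before and 10.95, 10.72, 10.56 and 10.46 after Dox. No Dox-untreated array reached the lowest Dox-treated one, and the Nanog pair had the narrowest gap. The changes were 3.28-fold, 2.37-fold, 1.48-fold and 2.86-fold, with an estimate of 1.26 (standard error 0.190, higher in 4 of 4 pairs, adjusted p = 0.0276 from limma). Ankrd37, an ankyrin-repeat gene known to respond to hypoxia, had 4.49, 5.15, 4.88 and 4.87 before and 6.58, 7.38, 5.46 and 6.50 after Dox. The arrays did not overlap, and the Dox-treated Nanog array was the lowest of its group. The changes were 4.27-fold, 4.67-fold, 1.49-fold and 3.10-fold, with an estimate of 1.63 (standard error 0.280, higher in 4 of 4 pairs, adjusted p = 0.0342 from limma). Its mean signal was below the median of gene means. Against the empty vector Dox-untreated array, the Dox-treated 2i array was at 1.48 (log2) for Bnip3 and 2.89 for Ankrd37.

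P4ha1 and P4ha2 encode the catalytic subunits of collagen prolyl hydroxylase. The log2 signal of P4ha2 was 6.998, 6.90, 7.43 and 8.37 before and 8.51, 8.75, 7.57 and 8.95 after Dox. Its Esrrb Dox-untreated array was already high, and the Nanog arrays nearly coincided. P4ha1 had 7.41, 7.59, 7.98 and 7.83 before and 8.31, 8.88, 8.19 and 7.93 after Dox, and was highest after Dox in the empty vector and 2i backgrounds. The log2 ratios were 1.52, 1.85, 0.14 and 0.58 for P4ha2 and 0.91, 1.29, 0.21 and 0.11 for P4ha1. With the empty vector Dox-untreated array as reference the Dox-treated 2i array was at 1.75 for P4ha2 and 1.47 for P4ha1. The difference of the Nanog and Esrrb pairs from the others was -1.32 for P4ha2 (standard error 0.234, adjusted p = 0.0842 from limma) and -0.94 for P4ha1 (standard error 0.202, adjusted p = 0.114 from limma), and neither passed. The trophoblast and simple epithelium markers were likewise higher after Dox in the empty vector and 2i backgrounds, and their part was not tested.

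Vegfa, the vessel growth factor and a classical Hif target, was lower in 4 of 4 pairs, with log2 signals of 8.36, 8.35, 8.65 and 8.59 before and 7.98, 8.01, 8.25 and 8.15 after Dox. All Dox-treated arrays were below all Dox-untreated ones. The estimate was -0.39 (standard error 0.090, adjusted p = 0.0553 from limma), which did not pass, and Vegfa was called lower in 3 of the other settings. Egln3, an oxygen sensor that Hif itself induces, had 7.78, 8.06, 8.01 and 7.54 before and 7.30, 6.57, 7.77 and 8.13 after Dox. Its Dox-treated 2i array was the lowest and its Dox-treated Esrrb array the highest. The log2 ratios were -0.47, -1.48, -0.24 and 0.59, and against the empty vector Dox-untreated array the Dox-treated 2i array was at -1.20. A second, dimmer probe set of Egln3 gave -0.66, -1.12, -0.02 and 0.12, so the rise with Esrrb was smaller there.

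Higd1a, a mitochondrial protein gene induced by hypoxia, had log2 signals of 11.24, 11.33, 11.38 and 11.26 before and 11.71, 11.90, 11.60 and 11.44 after Dox. The arrays did not overlap, and the gene did not pass (estimate 0.36, standard error 0.087, higher in 4 of 4 pairs, adjusted p = 0.0626 from limma). Its other probe sets ran from -0.59 to 0.23 and were below 0 in every pair but 2i. Ndrg1, a stress-response gene, had log2 ratios of -0.50, -0.98, -0.43 and 0.17. Its 4 other probe sets were lower in each pair, from -1.48 to -0.27 in the 2i pair and from -0.45 to -0.08 in the Esrrb pair. Egln1, the main oxygen sensor, ranged from -0.45 to 0.32, and Adm, the gene of the vessel peptide adrenomedullin, from -0.40 to 0.43. Car9, a carbonic anhydrase with a steep hypoxia response, had log2 signals of 3.79 to 4.79, below the median of gene means on all arrays. Its log2 ratios were -0.30, -0.04, 0.69 and -0.29.

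The Hif alpha subunits themselves did not pass. Hif1a had log2 signals of 11.91, 11.87, 11.89 and 11.97 before and 11.94, 11.69, 11.82 and 11.93 after Dox. The arrays overlapped and the log2 ratios were between -0.18 and 0.04. Another probe set of Hif1a, with a mean signal of 9.17, was lower in each pair, at -0.71, -0.39, -0.44 and -0.26. So was one with a mean signal of 7.39, at -0.17, -0.39, -0.26 and -0.26. A dim one with a mean signal of 3.75 gave 0.51, 0.40, 0.05 and -0.23. The common estimate was -0.06 (standard error 0.062, with 3 of 4 pairs lower, adjusted p = 0.563 from limma). Epas1, the gene of Hif2 alpha, had 10.27, 10.54, 10.22 and 10.91 before and 10.09, 10.15, 10.50 and 11.33 after Dox. Both Esrrb arrays were the highest, and the log2 ratios of -0.18, -0.40, 0.28 and 0.42 differed in sign between backgrounds. The common estimate was 0.03 (standard error 0.151, with 2 of 4 pairs higher, adjusted p = 0.914 from limma). The arrays measure RNA, so the amount of the proteins is not known.

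Glycolytic enzymes and Hif targets outside glycolysis were set side by side in each pair, as a description with no test. The median log2 ratio of the 12 enzymes was 0.11, 0.21, 0.47 and 0.40, and that of the 11 targets was 0.12, 0.43, 0.14 and 0.17, where all genes had -0.03, 0.03, -0.01 and 0.00. Of the enzymes 7, 8, 12 and 11 were higher after Dox, and of the targets 7, 7, 6 and 7. Of all 18194 genes, 8312, 9740, 8733 and 9170 were higher. The targets spread more widely, from -1.48 to 2.22 in the 2i pair, where the enzymes ran from -0.18 to 0.55. The median of the targets is not a stable value, since on the mean of all probe sets it was -0.13 with Nanog and -0.05 with Esrrb. When the Dox-treated 2i array was set against the Dox-untreated cells with an empty vector, an alternative chosen after seeing the data, the median of the enzymes was 0.48 and that of the targets 0.305, so that the order of the medians turned.

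**Figure D4:**
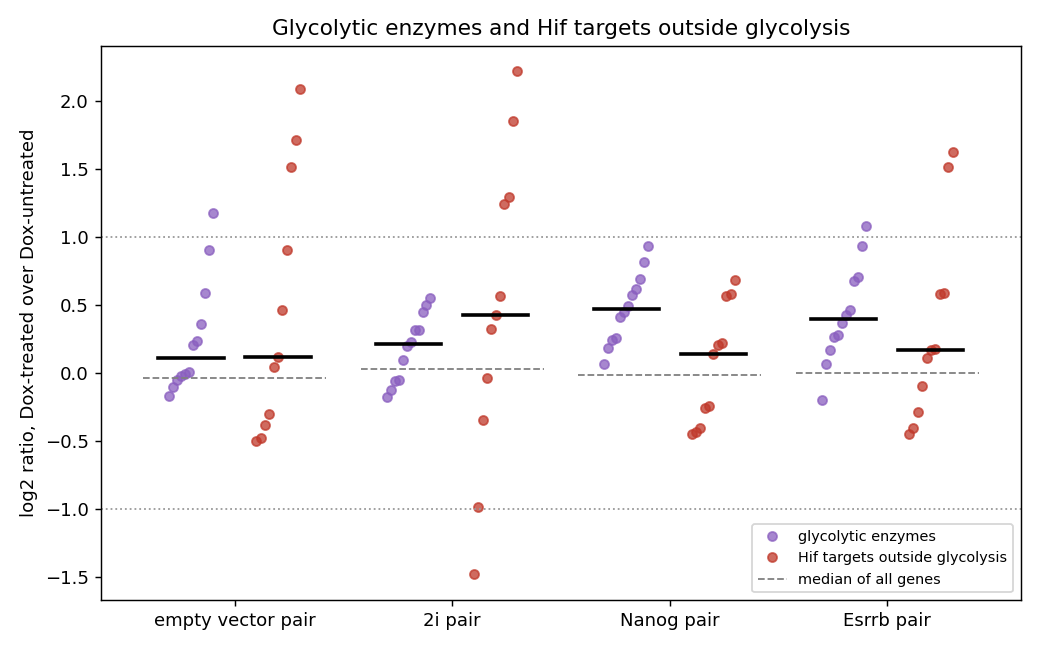
Log2 ratio between Dox-treated and Dox-untreated signal for the 12 glycolytic enzymes and the 11 Hif targets outside glycolysis in each pair. Each point is a gene, black bars are medians, dashed lines the median of all genes and dotted lines 2-fold. The enzymes lie above 0 in the Nanog pair, all 12 of them, while the targets are spread to both sides in every pair.

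No gene of the 34 passed the limma test of the difference between the Nanog and Esrrb pairs and the empty vector and 2i pairs. Over all genes it called 0.0% higher and 0.0824% lower. At an unadjusted p under 0.05 it had 7 of the 34 genes higher and 6 lower in the Nanog and Esrrb pairs (all genes 7.86% and 7.94%), and the smallest adjusted p was 0.0654. The calls depend on which pairs are kept. Without the empty vector pair 7 of the 34 genes were called higher and 2 lower (all genes 5.51% and 5.97%), and without the 2i pair 5 higher and 4 lower (all genes 5.94% and 6.27%). In these fits of 6 arrays the spread comes only from Nanog against Esrrb, with 1 residual degree of freedom, and the single pair on the other side is assumed to vary alike. The calls of these 2 fits therefore do not support each other. Without the Nanog or the Esrrb pair none was called.

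The log2 ratios of the 34 genes were most alike in the empty vector and 2i pairs (Pearson r = 0.79, Spearman rho = 0.86 across genes), followed by the Nanog and Esrrb pairs (r = 0.59, rho = 0.61). Between a pair of the first kind and one of the second, r was 0.34 to 0.53. Across all genes the corresponding values of r were 0.66, 0.64 and 0.44 to 0.53. The pairs share a parental line and genes do not count as replicates, so these values are descriptions.

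Before Dox few of these genes were over 2-fold apart between backgrounds. Against the empty vector Dox-untreated array, which all 3 comparisons share, 0 of the 34 genes were over 2-fold apart on the array labelled 2i, which goes against that label on Dusp6 (all genes 0.517% higher and 0.242% lower) and 0 in Nanog-overexpressing cells (0.434% and 0.253%). Smaller differences were shared within groups. All 12 glycolytic enzymes were higher on the array labelled 2i, with a median difference of 0.34, and all 11 Hif targets outside glycolysis were higher in Nanog-overexpressing cells, with a median of 0.33, where all genes had 0.01 and 0.02. Of all 18194 genes, 9263 were higher on the array labelled 2i and 9868 in Nanog-overexpressing cells. On the Esrrb Dox-untreated array 2 were higher, Ldhb by 1.69 and P4ha2 by 1.37 on the log2 scale, and 0 lower (1.26% and 0.561%). The endoderm markers were also high on that array, as given above, and their part was not tested.

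After Dox the differences were wider. Against the Dox-treated empty vector array, which again is shared, Pfkfb4 was lower by log2 differences of -1.52, -2.34 and -2.48 on the 2i, Nanog and Esrrb arrays. Slc2a1 was at -0.96, -1.23 and -0.70. The Nanog array had 4 genes over 2-fold higher and 3 lower (all genes 3.22% and 3.68%), and the Esrrb array 6 higher and 2 lower (3.59% and 3.56%). Pfkp, Aldoc and Pdk1 were over 2-fold higher on both, at 1.27 and 1.21 for Pfkp, 1.12 and 1.22 for Aldoc, and 1.06 and 1.39 for Pdk1. On the 2i array Hk1 was higher by 1.18 and Pfkfb4 lower (3.14% and 2.58%).

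Other genes of these pathways were taken from lists of their known members. For the counts of each list below, the same limma test called 3.69% of all genes higher and 3.39% lower. A list with 1 call is not read as a result about its pathway. Of 23 other glycolysis genes, 2 rose and 0 fell. Pkm, the pyruvate kinase gene and the last step of glycolysis, had log2 ratios of 0.63, 0.22, 0.48 and 0.68 (estimate 0.50, standard error 0.092, adjusted p = 0.0373 from limma). Fbp1, an enzyme of the reverse pathway of gluconeogenesis, had 2.09, 1.94, 0.92 and 1.40 (estimate 1.59, standard error 0.211, adjusted p = 0.0229 from limma), from a dim Dox-untreated signal of 5.22 to 5.65. Its paralogue Fbp2 had 2.27, 2.21, 0.28 and 0.55 and did not pass (adjusted p = 0.0909 from limma, higher in 4 of 4 pairs). Eno3, the muscle enolase, had 0.24, -1.17, 1.39 and 0.33.

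Of 11 pyruvate dehydrogenase genes, Pdk4 and Pcx rose and 0 fell. Pdk4 is an inhibitory kinase induced in fasting, and its log2 ratios were 1.66, 1.34, 0.43 and 1.13 (estimate 1.14, standard error 0.207, adjusted p = 0.0373 from limma). Pcx, pyruvate carboxylase, feeds oxaloacetate into the TCA cycle and had 1.53, 0.87, 0.69 and 0.56 (estimate 0.91, standard error 0.176, adjusted p = 0.0419 from limma). The phosphatase gene Pdp2 had -1.01, 0.22, -0.23 and -0.29. Of 15 TCA cycle genes, 1 rose and 0 fell. It was Mdh2, mitochondrial malate dehydrogenase (estimate 0.25, standard error 0.046, higher in 4 of 4 pairs, adjusted p = 0.0395 from limma), named after its value was seen. Suclg2, Dlst and Sdhb had the largest log2 ratios of that list, -0.57, -0.52 and -0.48. None of 6 pentose phosphate genes passed (limma, 1 at an unadjusted p under 0.05). Tkt, transketolase, had -1.06, -0.61, -0.07 and -0.03, Pgd ranged from -0.06 to 0.78 and Rpe from -0.28 to 0.40.

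Of 12 other Hif pathway genes, 1 fell and 0 rose. This was Arnt2, a partner of the alpha subunits known from neural tissue, with log2 ratios of -1.14, -1.74, -0.79 and -0.61 (estimate -1.07, standard error 0.201, adjusted p = 0.0397 from limma). Arnt, the main partner, had -0.60, -0.45, -0.17 and -0.44, and Vhl, which targets the alpha subunits for destruction, had -1.17, -0.46, -0.45 and -0.35. Both were lower in 4 of 4 pairs and neither passed (adjusted p = 0.0655 and 0.0747 from limma).

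Of 26 other Hif target genes, 3 rose and 2 fell. Mxi1, a Myc antagonist, Fam162a, a mitochondrial gene, and Tfrc, the transferrin receptor, rose by 0.57, 0.37 and 0.59 on the log2 scale (adjusted p = 0.0365, 0.0459 and 0.0499 from limma, each higher in 4 of 4 pairs). Stc2, a secreted glycoprotein gene, had log2 ratios of -0.68, -0.95, -1.45 and -1.77 (estimate -1.21, standard error 0.191, adjusted p = 0.0295 from limma), and Gys1, glycogen synthase, had an estimate of -0.46 (standard error 0.091, with 4 of 4 pairs lower, adjusted p = 0.0437 from limma). Mxi1, Fam162a, Tfrc and Gys1 were named after their values were seen. Car12, a carbonic anhydrase, had 1.61, 2.62, -0.23 and 0.31, and Plod2, a collagen lysyl hydroxylase, had 1.88, 1.67, 0.29 and 0.43. Both passed 2-fold with the empty vector and in 2i alone, like P4ha2, and neither passed the test of the difference (adjusted p = 0.0929 and 0.0518 from limma). The part of the trophoblast and simple epithelium markers in this was not tested.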

How the data were processed

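NS tet-off ESCs of 4 backgrounds, with or without Dox for 6 days, gave 8 Affymetrix GeneChip mouse genome arrays, 1 per condition, which were assigned to conditions from the labels. The authors made the log2 values with RMA from the affy package of R, a method with background subtraction, quantile normalization and summary of probes into probe sets. Versions: not given in the sources used here. These deposited log2 values were taken unchanged, with the log base read as 2 from their range of 1.82 to 14.6, array medians of 5.31 to 5.36, and 0 value columns outside these samples. A shift of all genes in the same direction would not be seen. Precision is limited by the number of arrays.

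Of 45101 probe sets, 34958 had 1 gene symbol in the platform annotation, 932 several and 9211 were unnamed. RefSeq matched 34754 of the first by Entrez ID and changed 0 symbols. Probe sets with several symbols were not used. A log2 ratio is signal with Dox minus signal without, and 2-fold is its threshold. limma 3.58.1 in R 4.3.3 (lmFit, eBayes with a trend) tested the common Dox response, blocked by background (3 residual degrees of freedom), and its difference between backgrounds (2), adjusted by Benjamini-Hochberg over 18194 genes at 0.05. The code was tested on simulated data. Promoters came from RefSeq (GRCm38.p6). Python 3.11.15 with numpy 2.4.6, pandas 2.3.3 and matplotlib 3.10.9 did the rest.

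The genes and the pathway and marker lists were chosen with earlier results of these data known. Values on all arrays are given for Hif1a, Epas1, genes over 2-fold in any pair or called by limma and the gene with the highest signal of each group, and Vegfa was added for its arrays. From each pathway list up to 3 genes with the largest log2 ratio were named, plus Pkm, Arnt and Vhl. Alternatives were the mean of the probe sets, leaving out probe sets ending in _x_at, centring, another quantile normalization, a filter on dim genes, thresholds of 1.5-fold and 3-fold, other settings of limma and the loss of each pair.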

Additional observations from a re-analysis of the deposited data

Results flagged for a closer look

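In Aldoc, Tpi1, Gapdh, Pgk1, Pdk1, Epas1, Egln1 and Adm both the Nanog and the Esrrb pair moved one way after Dox. Both the empty vector and the 2i pair moved the other way. The share of all genes with this pattern was not counted, so their number is not read as a result. The difference in log2 ratio, Nanog and Esrrb minus the other pairs, was 1.12 for Aldoc, 0.57 for Tpi1, 0.14 for Gapdh, 0.27 for Pgk1, 1.67 for Pdk1 and 0.64 for Epas1. It was -0.46 for Egln1 and -0.61 for Adm. The test of this difference (limma) passed none of them, with adjusted p of 0.0654, 0.103, 0.432, 0.267, 0.116 and 0.117 for the first 6 and 0.381 and 0.283 for Egln1 and Adm. For Gapdh and Pgk1 no pair moved by more than 0.18, and the second probe set of Aldoc did not follow the first. The second probe set of Egln1 gave 0.40, 0.48, -0.24 and 0.005, so its Esrrb pair was not lower.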

How the results depend on the processing

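There are 4 pairs and no replicates, so each test rests on backgrounds taken as replicates. The labels number no replicates, and the tests paired the arrays by background. Without the background block 5 of the listed genes were called higher in the common response. On the mean of the probe sets 5 were, with 407 genes in all. Leaving out pairs gave 0 to 2 listed genes, 1 to 26 genes higher and 2 to 14 lower, and leaving out both the 2i and the Esrrb pair, chosen after seeing the data, gave 0, 0 and 0. With arrays centred, with the filter on dim genes and without the trend, 1 listed gene (Vegfa) was called lower. The filter called 10 higher, 6 of them shared and the others Higd1a, Pfkm, Pgam1 and Slc2a3. For the difference between backgrounds the genes called lower were 1 on the mean of probe sets, 0 with arrays centred, 0 after quantile normalization again, 0 with the filter, 1 without the trend and 3 without the block, and 115 with the robust option, which also called 56 higher. Leaving out pairs there gave 0 to 7 listed genes higher and 0 to 4 lower, and 0 to 1081 and 0 to 1141 of all genes. The causes were not tested. The common estimate of Epas1 reversed to -0.0033 with arrays centred, and ran from -0.10 (without the Esrrb pair) and -0.05 (without the Nanog pair) to 0.17 (without the 2i pair) as pairs were left out.

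At 1.5-fold, 1 listed gene was lower in the empty vector pair (10.4% of all genes), 8 higher (4.34%) and 1 lower (4.29%) in the Nanog pair and 8 higher in the Esrrb pair (4.84%). At 3-fold, 2 were higher (1.95%) and 1 lower (1.02%) in the 2i pair and 1 higher in the Esrrb pair (0.28%). Against the empty vector Dox-untreated array 9 were over 2-fold higher on the Dox-treated 2i array (5.99% of all genes), with a median of 0.48 for the glycolytic enzymes. The median of the Hif targets was -0.13 (Nanog) and -0.046 (Esrrb) on the mean of probe sets, 0.46 (empty vector) without _x_at probe sets and -0.052 (Nanog) with the filter. The other medians moved less.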
